A study of Drosophila melanogaster with 18 samples.

Results

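Fly eye colour genes encode a small set of transporters and enzymes that make and store the red and brown screening pigments of the compound eye. The 9 genes described here are w (white), st (scarlet), bw (brown), v (vermilion), cn (cinnabar), cd (cardinal), pr (purple), se (sepia) and Hn (Henna), chosen by name, with no threshold on their expression. All 9 were found among the 13439 genes of the deposited table by their annotation symbols.

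Brown ommochrome pigments are made from tryptophan, and red drosopterin pigments from guanosine triphosphate through pteridines. White, Scarlet and Brown are subunits of ABC transporters: White pairs with Scarlet to carry ommochrome precursors and with Brown to carry guanine or pteridine precursors into pigment granules. Vermilion (tryptophan 2,3-dioxygenase) opens the ommochrome pathway, Cinnabar (kynurenine 3-monooxygenase) acts on its kynurenine intermediate, and Cardinal, a haem peroxidase, is placed at its last oxidative step. Purple (6-pyruvoyltetrahydropterin synthase) makes the precursor shared by drosopterins and tetrahydrobiopterin, Sepia is an omega-class glutathione transferase that makes a drosopterin intermediate, and Henna is the phenylalanine hydroxylase, which uses tetrahydrobiopterin as cofactor. The same genes act outside the eye, in fat body, Malpighian tubules and brain.

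RNA was sequenced from brains of virgin Oregon wild-type Drosophila melanogaster, females and males, at 3, 7 and 14 days after eclosion, with 100 brains pooled per library and no treatment or transgene named for any group. Values were analysed for 16 libraries: 3 of 3-day females, 2 of 7-day females, 2 of 14-day females, and 3 of males at each age. Among 7-day females replicate 3, and among 14-day females replicate 1, were left out by the authors as outliers and are not analysed here. Each library is a pool, so the errors below describe the spread between pools and not between single flies.

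Library totals ran between 2924715 reads (replicate 1 of the 14-day males) and 8664494 reads (replicate 3 of the 3-day males), with a median of 6094045. Values are normalized reads, which are whole reads times 1 factor per library (0.639 to 1.75 normalized reads per read). Markers of neurons and glia were above 0 in every library. So were all 18 photoreceptor and all 4 retinal pigment and cone cell markers, so the libraries held eye transcripts beside those of the brain. A median over 135 scarce transcripts (gustatory receptor, cuticle and eggshell genes) was 44.8 normalized reads in replicate 1 of the 14-day males and 0 to 23.8 in the other 15 libraries. In 7-day females, replicate 2 differed from replicate 1 in that median (17.5 and 8.12), in genes at 0 reads (155 and 719) and in summed fat body markers (26263 and 98071 normalized reads). Several results below are also given without replicate 1 of the 14-day males and replicate 2 of the 7-day females, called doubted here. With 2 libraries of 7-day females, these values do not show which of them is the odd one. Leaving out 1 library of 7-day or of 14-day females leaves 1 library in that group.

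Every one of the 9 genes had a mean of at least 5 normalized reads, the minimum for testing. Genes were compared on the scale of log2(normalized reads + 1) with limma over 12448 genes, in 1 model of all 6 groups, and a gene was called at a Benjamini-Hochberg adjusted p below 0.1. Fold changes are log2 values with their standard errors (SE), and those of low genes are understated by the added 1. Over all genes tested, the median log2 fold change was −0.12, 0.09 and −0.12 for females against males at 3, 7 and 14 days. Against the younger age it was 0.12, 0.06 and 0.15 in females and −0.03, 0.20 and 0.24 in males for the steps 3 to 7, 7 to 14 and 3 to 14 days.

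Levels differed widely among the 9 genes. Per kb of exon, pr was the most abundant, with a mean of 204 ± 80.3 normalized reads per kb (SD, n = 16), above 85.0% of all genes. Next came se at 58.4 ± 33.2, Hn at 37.5 ± 29.1 and v at 28.9 ± 23.1 normalized reads per kb. The lowest were bw at 23.1 ± 7.04, st at 21.8 ± 26.9, cd at 14.1 ± 18.3, cn at 8.56 ± 8.75 and w at 8.07 ± 3.76 normalized reads per kb, and w stood above only 12.7% of all genes. Only pr lay apart from its neighbour in this order, at 143 to 447 normalized reads per kb against 22.7 to 141 for se, since the ranges over libraries of every other pair of neighbours overlapped. The gene named white, the partner of both Scarlet and Brown, was thus the least abundant of the transporters: bw exceeded w per kb in 15 of 16 libraries (median ratio 2.90), and st exceeded w in 13 of 16 (median ratio 1.71).

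**Figure D1:**
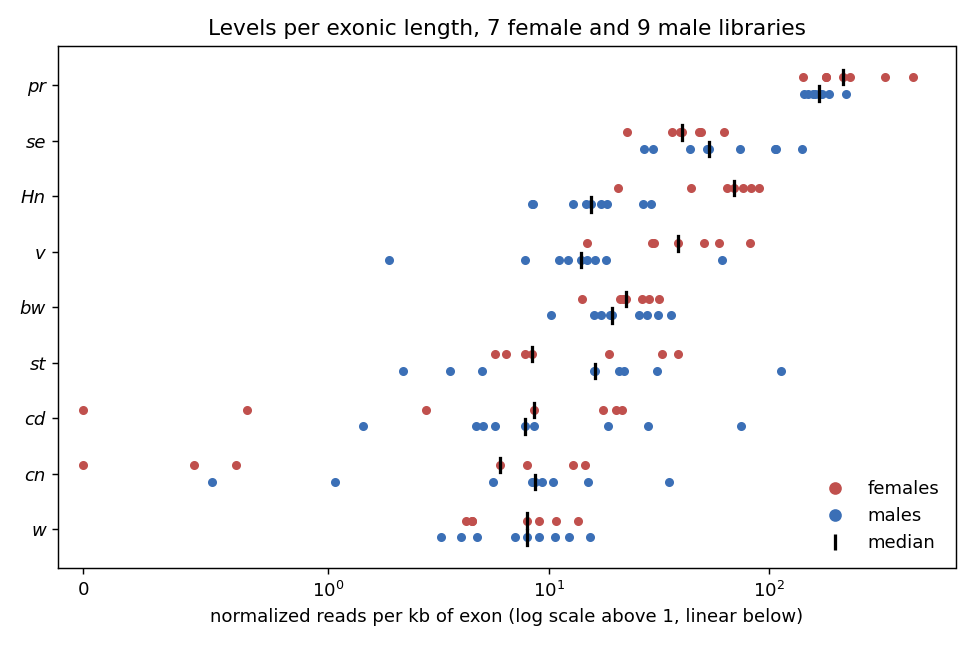
Level of each gene per kb of exon in 7 female (red) and 9 male (blue) libraries, with 1 point per library and a black tick at the median of each sex. The axis is logarithmic above 1 and linear below; pr lies highest, w and cn lowest, and Hn and v show the widest gap between the sexes' medians.

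Henna, the phenylalanine hydroxylase, had the largest averaged sex difference of the 9 genes and was higher in females. Hn (CG7399, chromosome 3L, 7760453 to 7763166) had 147, 175 and 94.0 normalized reads in 3-day females, against 36.6, 32.9 and 17.9 in 3-day males. At 7 days it had 191 and 43.9 normalized reads in females, against 27.4, 18.0 and 31.4 in males. At 14 days it had 136 and 161 normalized reads in females, against 56.9, 61.3 and 38.8 in males. Female and male values did not overlap at any age, and the nearest approach was replicate 2 of the 7-day females.

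The Hn log2 fold change of females over males was 2.23 (SE 0.49, adjusted p = 0.017) at 3 days and 1.86 (SE 0.31, adjusted p = 0.00284) averaged over the 3 ages. Both calls held when any 1 library was left out. At 7 and 14 days alone the values were 1.84 (SE 0.55, adjusted p = 0.479) and 1.51 (SE 0.55, adjusted p = 0.638), not past the threshold. The 7-day value rested on which female library was kept, in fits that leave 1 library of that group. Hn was 0.79 without replicate 1 of the females, and 2.89 without replicate 2 or without both doubted libraries. Its level did not pass the test between any 2 ages of 1 sex, with 138.8 ± 41.3, 117 ± 104 and 148 ± 17.9 normalized reads in females (SD, n = 3, 2 and 2) and 29.1 ± 9.91, 25.6 ± 6.89 and 52.3 ± 11.9 in males (SD, n = 3 each) at 3, 7 and 14 days.

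Vermilion, at the head of the ommochrome pathway, was also higher in females. v (CG2155, chromosome X, 10923972 to 10925631) had 39.2, 38.6 and 19.5 normalized reads in 3-day females, against 18.3, 2.46 and 10.2 in 3-day males. It had 50.5 and 66.2 normalized reads in 7-day females, against 16.0, 23.7 and 19.4 in 7-day males. At 14 days it had 77.1 and 107 normalized reads in females, against 79.9, 21.3 and 14.6 in males, where only replicate 1 of the males reached the female range. The sexes did not overlap at 3 and 7 days.

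Averaged over the ages, the v difference was 1.64 on the log2 scale (SE 0.42, adjusted p = 0.0701), and the values at 3, 7 and 14 days were 1.81, 1.52 and 1.60, none past the threshold alone in limma (adjusted p = 0.119, 0.671 and 0.699), while DESeq2 called the 3-day difference (adjusted p = 0.0957). The averaged call was lost when any 1 of 10 of the 16 libraries was left out (adjusted p 0.107 to 0.202). Among females these were replicates 1 and 2 at 3 days, 1 at 7 days and both at 14 days, and among males replicates 2 and 3 at 3 and at 7 days and 2 at 14 days. With age, v in 14-day over 3-day males was 1.74 in limma (SE 0.68, adjusted p = 0.117), while DESeq2 called it (1.97, adjusted p = 0.0423). Leaving out 1 library gave 1.03 to 2.29 in limma. For 14-day over 3-day females it was 1.53 (SE 0.76, adjusted p = 0.182), not past the threshold.

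Hn and v were 2 of the 9 genes called for the sex difference averaged over the ages, where 2.40% of all genes tested were called. The other 7 were not, among them pr (0.37, SE 0.17, adjusted p = 0.252), se (−0.59, SE 0.31, adjusted p = 0.317) and the 3 transporters. The intervals of the transporters' averaged differences (95%, limma) were −0.90 to 0.89 for w, −1.04 to 1.13 for st and −0.40 to 0.69 for bw. The median over the 9 genes was 0.04, beside −0.08 over all genes.

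Most listed fat body markers differed between the sexes in the same libraries. The 8 were Yp1, Yp2, Yp3, Lsp2, fit, Obp99a, Fbp1 and apolpp. Of these, 7 were called higher in females at 3 days (11.4% of all genes called) and averaged over the ages (2.40%). At 7 and at 14 days 5 were called higher (0.0562% and 0.329%). In each of these comparisons 7 had a positive and 1 a negative log2 fold change. The summed level of the 8 was 19006 to 159442 normalized reads in the female libraries, against 2108 to 3422 in the male libraries. fit and Fbp1 were at 0 in some libraries. The sum includes the yolk protein genes Yp1, Yp2 and Yp3, so it cannot separate the amount of fat body from sex. The part of these markers in the Hn and v differences was not tested. In pooled tissue fewer cells of a type and less RNA per cell cannot be told apart. The genes most like Hn over the 16 libraries, by Pearson's r of log2 values, were Lsd-2 (r = 0.957), which encodes a lipid droplet protein, BomT2 (r = 0.956) and Npc2g (r = 0.955). For v they were AkhR (r = 0.90), the receptor of adipokinetic hormone, CG2736 (r = 0.888) and Pfas (r = 0.886), an enzyme of purine synthesis. These are descriptions over libraries that share depth, sex and age.

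**Figure D2:**
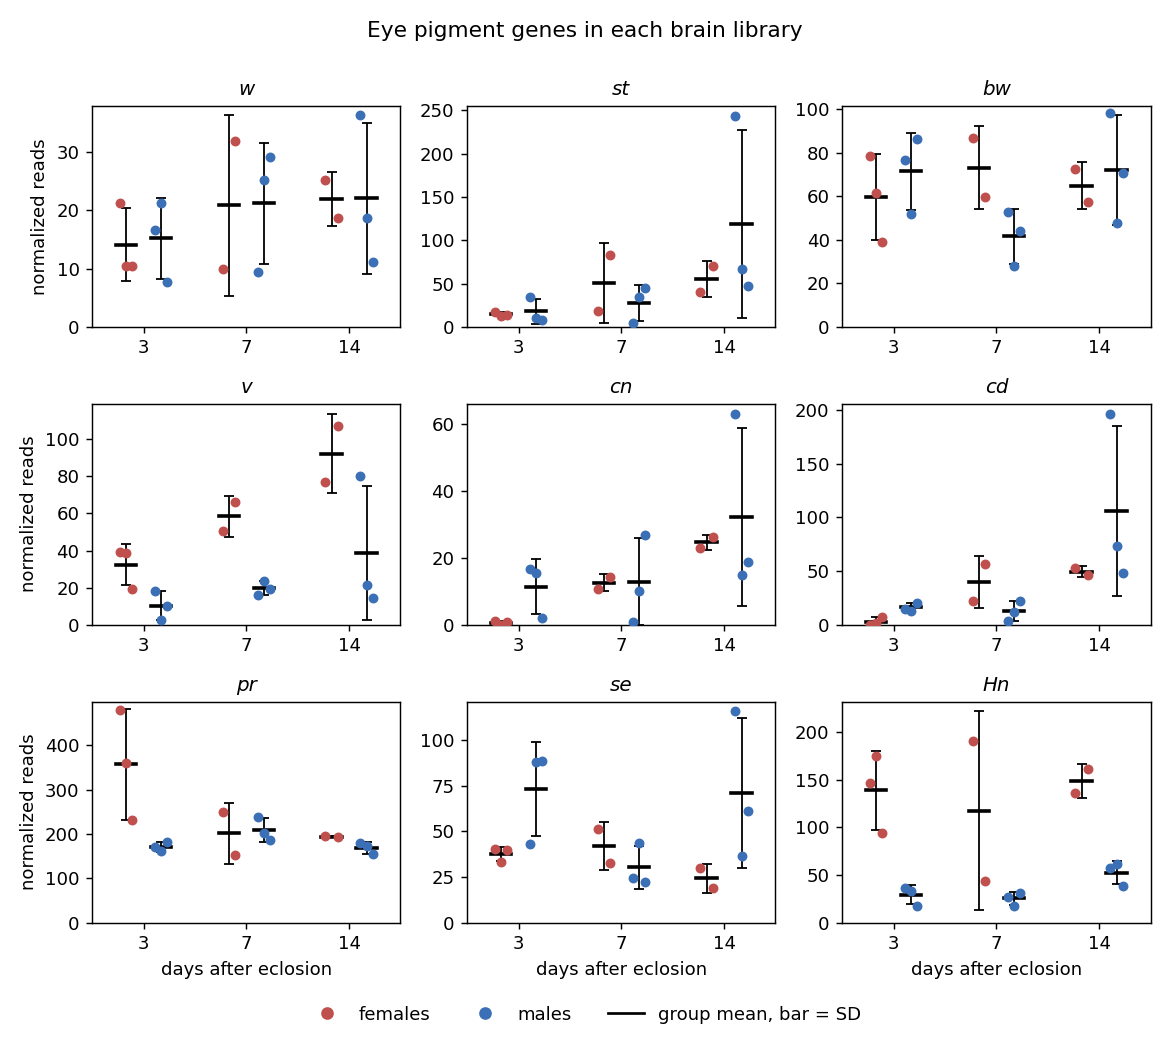
Normalized reads of the 9 genes in each library by days after eclosion, with females in red, males in blue, the group mean as a line and the SD as a bar that stops at 0. Hn lay higher in females at each age, pr was highest in 3-day females, and the top st, cn and cd points (243, 63.0 and 196) all belong to replicate 1 of the 14-day males.

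Purple, the most abundant of the set, stood high in young females. pr (CG16784, chromosome 2L, 20073719 to 20075458) had 480, 359.5 and 231 normalized reads in 3-day females, against 169.7, 161 and 182 in 3-day males. In the older groups it had 249.8 and 153 normalized reads in 7-day females, and 194 and 193 in 14-day females. Older males had 239, 201 and 187 normalized reads at 7 days and 180.5, 173 and 154 at 14 days. All libraries outside the 3-day females thus lay between 153 and 249.8 normalized reads, and replicate 3 of the 3-day females lay within that span.

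For pr the log2 fold change of 3-day females over 3-day males was 1.00 (SE 0.26, adjusted p = 0.0355), and in 14-day females pr was lower than in 3-day females, with a value of −0.81 (SE 0.30, adjusted p = 0.0752). The 7-day females differed from the 3-day females by −0.80 (SE 0.30, adjusted p = 0.136), which DESeq2 called (adjusted p = 0.0811). This difference was −0.45 without the 7-day replicate 2, with 1 library left in that group. The sex difference at 3 days missed the threshold without replicate 1 of the females (adjusted p = 0.207) or replicate 1 of the males (adjusted p = 0.142). The fall to 14 days missed it without replicate 1 or 2 of the 3-day females (0.267 and 0.148) or either 14-day female library (0.189 and 0.331).

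Cinnabar and cardinal were near the detection limit in 3-day females and well above it in older ones. cn (CG1555, chromosome 2R, 7782797 to 7785067) had 1.12, 0 and 0.811 normalized reads in 3-day females, which came from 2 reads over the 3 libraries. It had 10.8 and 14.4 normalized reads in 7-day females and 23.01 and 26.2 in 14-day females. In males it had 16.6, 15.6 and 1.92 normalized reads at 3 days, 0.944, 10.1 and 26.9 at 7 days and 63.0, 15.0 and 18.7 at 14 days. The males spread over each age, whereas the 3 female ages did not overlap.

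The library at 0 reads allowed up to 5.26 normalized reads of cn (3 reads). The log2 fold change of cn was 4.03 in 14-day over 3-day females (SE 1.07, adjusted p = 0.0222) and 3.10 in 7-day over 3-day females (SE 1.07, adjusted p = 0.109). While limma did not call the latter, edgeR and DESeq2 did (adjusted p = 0.0946 and 0.0572). As a ratio of normalized counts, 14-day over 3-day females came to 33.1 with an exact 95% interval of 8.59 to 282, which covers counting error only. Of the 1790 exonic bases of cn, 1229 are shared with asRNA:CR45108 on the opposite strand. The use of strand in counting is not given in the sources used here. Without it, reads of this stretch could not be told apart, which bears on all cn values and on the level of cn per kb.

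cd (CG6969, chromosome 3R, 22694959 to 22697990) had 0, 1.75 and 7.29 normalized reads in 3-day females, or 10 reads in all. It had 22.5 and 56.6 normalized reads in 7-day females and 52.9 and 46.2 in 14-day females. In males it had 15.0, 13.1 and 20.4 normalized reads at 3 days, 3.78, 12.2 and 22.4 at 7 days and 196, 73.8 and 48.5 at 14 days. The 3-day females lay below every other group but the 7-day males, whose lowest library was within the 3-day female range, and the 14-day males reached the highest values.

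The cd log2 fold change was 3.70 in 7-day over 3-day females (SE 0.89, adjusted p = 0.0352) and 4.15 in 14-day over 3-day females (SE 0.89, adjusted p = 0.0101). The ratio of normalized counts was 11.0 for the 7-day step (exact 95% interval 5.71 to 23.6) and 13.4 for the 14-day step (6.93 to 29.0). These intervals, and those of the count ratios that follow, cover counting error only and not the spread between libraries. The 3-day female libraries had 0, 1 and 9 reads of cd. Compared with males of their age, 3-day females were lower in cd by −2.58 (SE 0.80, adjusted p = 0.0643), a count ratio of 0.220 (0.1003 to 0.435). For cn the same comparison gave −2.60 (SE 0.96, adjusted p = 0.114), with a count ratio of 0.0785 (0.00911 to 0.308) that edgeR and DESeq2 called.

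In 3-day females against 3-day males, 3 of the 9 genes were therefore called (pr and Hn higher, cd lower), where 11.4% of all genes were called. Between 7-day and 3-day females 1 of 9 was called (cd), with 7.67% of all genes called, and between 14-day and 3-day females 3 of 9 (cn and cd higher, pr lower), with 21.7% of all genes called. The comparisons share the 3-day female libraries, so their calls are not independent. The median log2 fold change was −0.07 over the 9 genes and −0.12 over all genes for the 3-day sex difference. Set side by side in the same way, it was 0.40 and 0.12 for 7-day over 3-day females, and 0.67 and 0.15 for 14-day over 3-day females.

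The cd difference between the sexes at 3 days missed the threshold when any 3-day library but replicate 3 of the females was left out (adjusted p 0.115 to 0.285). Among females, cd at 7 days missed it without the 3-day replicate 1 (0.127) or the 7-day replicate 2 (0.636), and cn and cd at 14 days missed it without the 14-day replicate 3 (0.204 and 0.151). Quantile normalization, which gives all libraries 1 distribution of values, brought the 14-day changes to 1.504 for cn (adjusted p = 0.388) and 2.11 for cd (0.138), the 7-day change of cd to 2.02 (0.311) and its 3-day sex difference to −1.0 (0.472).

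The level of scarce transcripts moved with cn and cd. Among females its median lay at 0 to 2.43 normalized reads (3 days), 8.12 to 17.5 (7 days) and 16.2 to 17.3 (14 days). Among males it lay at 7.66 to 13.3, then 2.83 to 13.5, then 13.2 to 44.8 for the same ages. The number of genes at 0 reads ran between 1327 and 2289 in 3-day females and between 94 and 1234 in the other libraries. Hemocyte markers (Hml, NimC1, eater and Sr-CI) moved the same way. Of 4, 2 were called higher in 7-day and 2 in 14-day than in 3-day females (7.67% and 21.7% of all genes called). In 14-day males 3 of 4 were called higher than at 7 days and 3 of 4 than at 3 days (21.2% and 11.5%). Their summed level among females lay at 52.7 to 77.2 normalized reads (3 days), 168 to 187 (7 days) and 154 to 185 (14 days), and among males at 47.3 to 146, then 43.4 to 168, then 149 to 728. Of 8 glia markers, 3 were called lower in 7-day and 5 in 14-day than in 3-day females, beside 7.67% and 21.7% of all genes. In 14-day males 2 of 8 were called lower than at 7 days, near the 21.2% of all genes, and 4 than at 3 days (11.5%). Summed neuron markers had means of 107465, 96878 and 56833 normalized reads in females and 81731, 63833 and 41899 in males at 3, 7 and 14 days. Of 8, 2 were called lower in 14-day than in 3-day females, near the 21.7% of all genes, and 0 in 14-day than in 3-day males (11.5%). All 8 had a negative log2 fold change in both comparisons (median −0.96 in females and −0.91 in males). Their sum was 19232 in replicate 1 of the 14-day males, against 50710 and 55755 in replicates 2 and 3. The part of all these marker levels in the cn, cd and st differences was not tested. Over the 16 libraries, 478 of 8408 other genes had an r of at least 0.8 with cn and 749 with cd. The genes most like cn were sand (r = 0.946), CG6026 (r = 0.942) and Cpr76Bd (r = 0.942), a cuticle protein gene, and those most like cd were CG15128 (r = 0.965), Ir87a (r = 0.964), an ionotropic receptor gene, and CG15373 (r = 0.964).

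Scarlet rose with cardinal in the oldest males. st (CG4314, chromosome 3L, 16497651 to 16500460) had 34.9, 10.7 and 7.66 normalized reads in males at 3 days, 4.72, 34.5 and 44.9 at 7 days and 243, 66.3 and 47.1 at 14 days. In females it had 16.8, 12.3 and 13.8 normalized reads at 3 days, 18.0 and 82.9 at 7 days and 40.3 and 69.9 at 14 days. The 14-day males lay above every younger male library, and replicate 1 was far above the other two.

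For st the log2 fold change was 2.14 in 14-day over 7-day males (SE 0.83, adjusted p = 0.0944) and 2.59 in 14-day over 3-day males (SE 0.83, adjusted p = 0.0902). For cd it was 2.98 (SE 0.80, adjusted p = 0.0761) and 2.41 (SE 0.80, adjusted p = 0.0923) in the same comparisons. In females st gave 1.83 for 14-day over 3-day females (SE 0.93, adjusted p = 0.187), not past the threshold. These were 2 of 9 genes called for 14-day against 7-day males, where 21.2% of all genes were called, and 2 of 9 for 14-day against 3-day males, where 11.5% were called. The median over the 9 genes was 1.01 and 0.86 in these comparisons, beside 0.20 and 0.24 over all genes.

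edgeR called neither st nor cd in either male comparison, and DESeq2 called both in both. Over 7-day and 3-day males, edgeR called 0 and 76 of all 12448 genes, and DESeq2 3494 and 3305 of 12440. The edgeR result is thus shared by nearly all genes and is not particular to st and cd. Without replicate 1 of the 14-day males, st was 1.44 over 7-day males (adjusted p = 0.457), and st and cd had adjusted p 0.417 to 0.478 over the younger ages. Without replicate 1 of the 7-day males, which had 4.72 normalized reads of st, the st change was 1.20 (adjusted p = 0.387). Without both doubted libraries st was 1.44 and 1.89 and cd 2.42 and 1.85 over 7-day and 3-day males (adjusted p 0.370 to 0.420). Leaving out replicate 2 of the 14-day males, replicate 1 or 2 of the 7-day males, or, for the 3-day comparison, replicate 2 or 3 of the 3-day males (for cd also replicate 1) also cost st and cd their calls, with adjusted p 0.114 to 0.304 for cd and 0.126 to 0.387 for st.

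**Figure D3:**
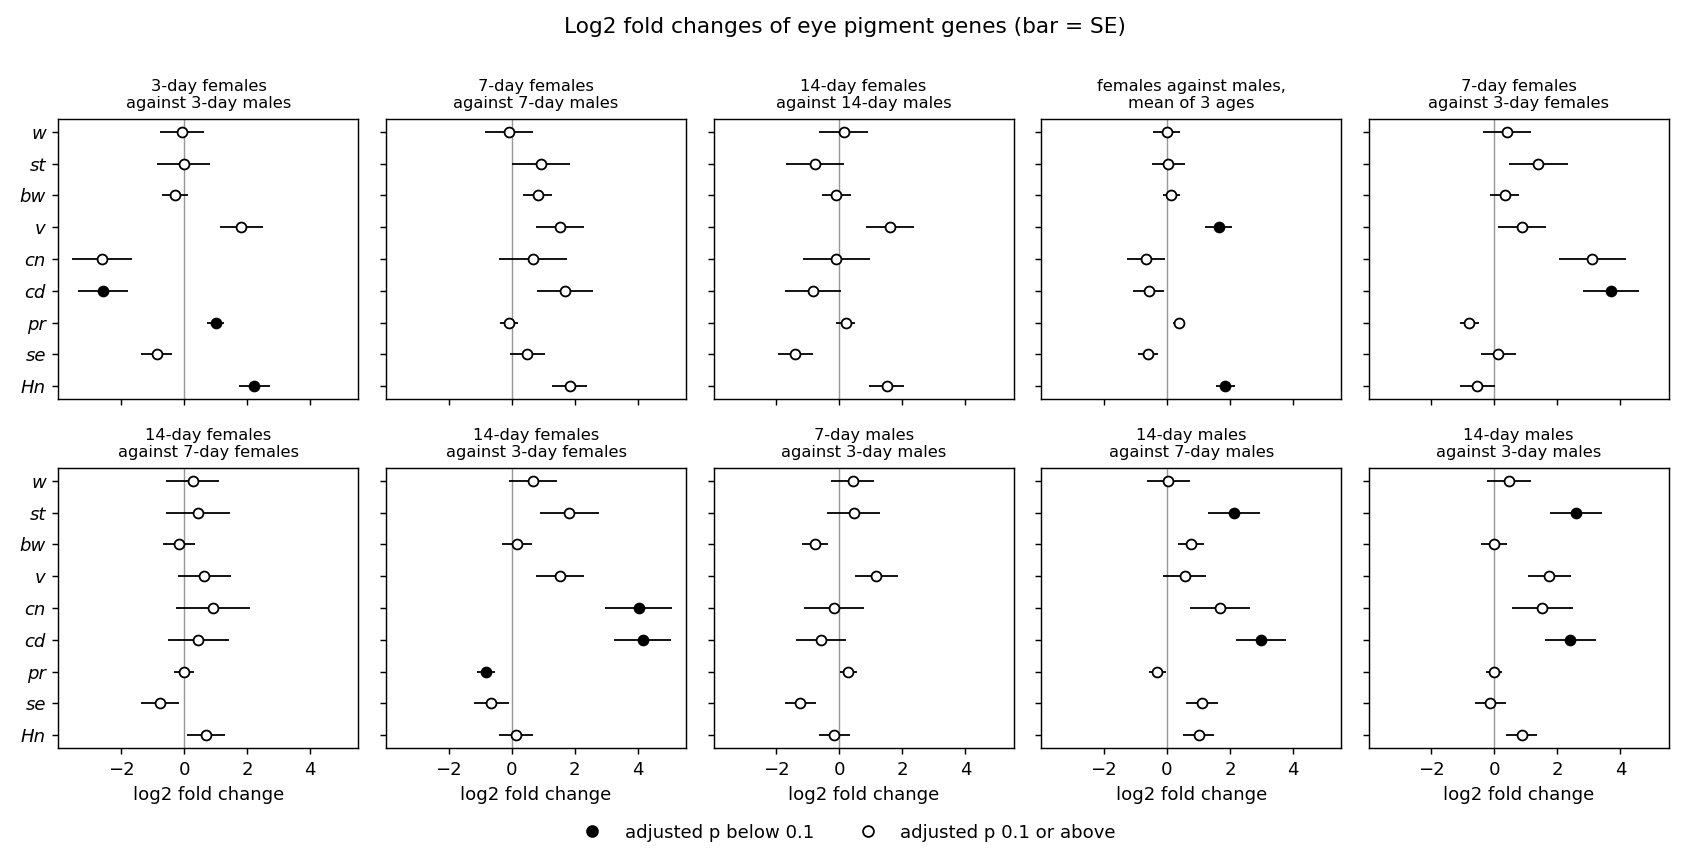
Log2 fold change of each gene in 10 comparisons, females against males in 4 and the older against the younger age in 6, with bars for the SE. Filled points passed adjusted p 0.1: Hn, pr and cd between the sexes at 3 days, Hn and v averaged over the ages, cd in both older females and cn and pr in 14-day females against 3-day females, and st and cd in 14-day males against both younger ages.

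White and brown passed no test. w (CG2759, chromosome X, 2790599 to 2796466) ran between 7.66 and 36.3 normalized reads over the 16 libraries, with group means of 14.1, 20.9 and 22.0 in females and 15.2, 21.3 and 22.1 in males at 3, 7 and 14 days. Its difference of 14-day over 3-day animals was 0.67 in females (95% interval −0.94 to 2.27) and 0.46 in males (−0.97 to 1.90). bw (CG17632, chromosome 2R, 23527805 to 23538499) ran between 28.0 and 98.1 normalized reads, with group means of 59.6, 73.2 and 64.9 in females and 71.5, 41.7 and 72.1 in males. The same difference for bw was 0.17 in females (−0.81 to 1.15) and −0.02 in males (−0.89 to 0.86).

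Of the 3 transporters, bw had the smallest spread over libraries (SD 19.3 at a mean of 63.2 normalized reads) and st the widest (57.7 at 46.8). For the ages in order, the per-kb ratio of bw to st ran over 2.21 to 3.92, then 0.565 to 3.76, then 0.644 to 1.41 among females. Among males it ran over 1.72 to 8.82, then 0.637 to 8.78, then 0.316 to 1.18, so that bw exceeded st in every 3-day library and in 1 library of each 14-day group. bw shares 456 exonic bases with mi, which lies on the opposite strand, so without strand in the counting reads of this stretch could not be told apart. mi passed no comparison in limma.

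Sepia had an SD of 10.2 normalized reads over the 7 female libraries and 32.6 over the 9 male libraries. se (CG6781, chromosome 3L, 8520552 to 8521489) had 40.4, 33.3 and 39.7 normalized reads in 3-day females, against 43.3, 87.9 and 88.8 in 3-day males. It had 51.4 and 32.7 normalized reads in 7-day females, against 24.5, 43.8 and 22.4 in 7-day males. At 14 days it had 29.9 and 18.7 normalized reads in females, against 116, 36.3 and 61.0 in males. Female values lay below male values at 3 and 14 days and within their range or above it at 7 days.

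No se comparison passed the threshold in limma: the difference at 14 days was −1.39 (SE 0.56, adjusted p = 0.681), that of 7-day over 3-day males −1.24 (SE 0.50, adjusted p = 1.00) and that of 14-day over 7-day males 1.11 (SE 0.50, adjusted p = 0.127). DESeq2 called the last (adjusted p = 0.0691), which was 0.68 in limma without replicate 1 of the 14-day males (adjusted p = 0.532). se shares 61 exonic bases with its neighbour GstO2.

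Between the sexes at 7 days, limma called 0 of the 9 genes, with 0.0562% of all genes called. At an unadjusted p below 0.05 it was 1 (Hn) beside 7.54% of all genes. edgeR called 0 of 9 (8 of 12448 genes in all) and DESeq2 1 (81 of 11716). At 14 days limma called 0 of 9 beside 0.329%, and at an unadjusted p below 0.05 it was 2 (se and Hn) beside 7.13%. edgeR and DESeq2 called 0 of 9 there. For 14-day against 7-day females limma, edgeR and DESeq2 called 0 of 9, limma called 0% of all genes, and at an unadjusted p below 0.05 it was 0 of 9 beside 2.21%. For 7-day against 3-day males limma called 0 of 9 beside 0.193%, and at an unadjusted p below 0.05 it was 1 (se) beside 3.00%, with 0 called by edgeR and DESeq2.

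Whether the change with age differed between the sexes was tested directly. For the step 3 to 7 days, the female change minus the male change was 4.27 for cd (SE 1.20, adjusted p = 0.120), 3.27 for cn (SE 1.44, adjusted p = 0.288) and −1.08 for pr (SE 0.40, adjusted p = 0.201). limma called 0 of 9 beside 0.546% of all genes, while at an unadjusted p below 0.05 it was these 3 of 9 beside 15.2%. edgeR called 0 of 9 (145 of 12448 genes in all) and DESeq2 cd alone (868 of 12440). For 7 to 14 days limma called 0 of 9 beside 0%. At an unadjusted p below 0.05 it was se alone (−1.88, SE 0.79, adjusted p = 0.577) beside 7.67%. For 3 to 14 days it called 0 of 9 beside 0%, and at an unadjusted p below 0.05 it was 0 of 9 beside 5.33%. For both of these steps edgeR and DESeq2 called 0 of 9.

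The other genes of the pigment pathways were set beside the same shares of all genes called. Of 14 further ommochrome and pteridine enzymes (KFase, Pu, Sptr, Pcd, Dhpr, DhpD, cl, ry, mal, cin, GstO1, GstO2, GstO3 and pn), none was called between the sexes at 3, 7 or 14 days (11.4%, 0.0562% and 0.329% of all genes), 1 in 14-day against 3-day females (21.7%), 2 in 14-day against 7-day males (21.2%) and 1 in 14-day against 3-day males (11.5%). GstO1, a sequence relative of sepia, was higher in 14-day than in 3-day females (1.45, SE 0.52, adjusted p = 0.0725), in 14-day than in 7-day males (1.45, SE 0.47, adjusted p = 0.0761) and in 14-day than in 3-day males (1.71, SE 0.47, adjusted p = 0.0792). ry (rosy), the xanthine dehydrogenase, was higher in 14-day than in 7-day males (0.77, SE 0.29, adjusted p = 0.0886). The other 12 were called in none of the 13 comparisons.

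Pigment granule genes, which act in the trafficking of pigment and other lysosome-related organelles, were represented by 22 of 24 listed, with Muted and Snapin not matched. mv (mauve) was higher in 14-day than in 3-day females (1.22, SE 0.44, adjusted p = 0.0724), and in 14-day males than in 7-day males (1.19, adjusted p = 0.0787) and 3-day males (1.15, adjusted p = 0.0962). In 14-day against 7-day males, Rab32 (lightoid), a small GTPase of granule biogenesis, was also higher (1.36, SE 0.44, adjusted p = 0.0771). Lower were cm (carmine), an adaptor complex subunit (−0.996, SE 0.34, adjusted p = 0.0819), and HPS4 (−0.80, SE 0.28, adjusted p = 0.0836). No granule gene was called between the sexes. The 1 of 22 in 14-day against 3-day females, 4 of 22 in 14-day against 7-day males and 1 of 22 in 14-day against 3-day males stand beside those same shares.

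Among 12 other ABCG transporters, CG4822 was higher in females averaged over the ages (1.18, SE 0.31, adjusted p = 0.0736), E23 and CG11069 in 14-day over 3-day females (1.29 and 2.42, adjusted p = 0.0939 and 0.094), and CG11069 in 14-day over 7-day males (2.57, adjusted p = 0.0782). These were 1, 2 and 1 of 12, beside 2.40%, 21.7% and 21.2% of all genes. Of 3 tetrahydrobiopterin-dependent enzymes (ple, Trhn and Nos), only ple, the tyrosine hydroxylase of dopamine synthesis, was called. It was higher in 3-day females than in 3-day males (0.90, SE 0.30, adjusted p = 0.0864) and lower in 14-day than in 3-day females (−1.21, SE 0.34, adjusted p = 0.0274).

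Eye markers moved with age in these libraries. The summed level of the 18 photoreceptor markers among females lay at 43663 to 96169 normalized reads (3 days), 28501 to 29044 (7 days) and 9492 to 24729 (14 days). Among males it lay at 31022 to 49619, then 10573 to 21846, then 13942 to 25726 for the same ages. Of the 18, 6 were lower in 7-day and 16 in 14-day females than in 3-day females (7.67% and 21.7% of all genes called). In males 6 were lower at 7 days and 9 at 14 days than at 3 days (0.193% and 11.5%), while 3 were higher in 14-day than in 7-day males (21.2%). No photoreceptor marker was called between the sexes at 3, 7 or 14 days (11.4%, 0.0562% and 0.329% of all genes) or averaged over the ages (2.40%). By sign, 16 and 18 of the 18 were higher in females at 3 and 7 days, and 15 were lower at 14 days. Their median log2 fold changes were 0.60, 0.92 and −0.21. Of the 4 retinal pigment and cone cell markers (pinta, Pdh, Crys and retinin), 2 were lower in each older group than at 3 days in both sexes, and 1 was higher in 14-day than in 7-day males.

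In the same comparison of 14-day with 3-day females in which 16 photoreceptor markers were lower, cn and cd were called higher and pr lower. With the photoreceptor level as a covariate, Hn kept its calls (adjusted p = 0.0554 at 3 days and 0.0172 averaged over the ages). Other calls were lost, with these log2 fold changes and adjusted p: v averaged over the ages was 1.63 (0.261), and at 3 days pr was 0.91 (0.131) and cd −2.21 (0.217). In females cd was 3.03 at 7 days (0.342), and at 14 days cn was 5.44 (0.628), cd 2.94 (0.741) and pr −0.54 (0.941). In 14-day males st was 2.01 over 7-day males (0.128) and 2.97 over 3-day males (0.467), and cd was 1.73 over 3-day males (0.495) but kept its call over 7-day males (3.20, 0.0927). The covariate itself was lower in the older groups of both sexes than at 3 days. Its mean was 66398 normalized reads in 3-day females against 41883 in 3-day males. The model therefore cannot fully separate it from age and sex. For cn in 14-day females the change grew from 4.03 to 5.44 while its adjusted p in limma rose from 0.0222 to 0.628. The part of eye content in the calls kept or lost was not tested, and the number of all genes called with the covariate is not given.

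**Figure D4:**
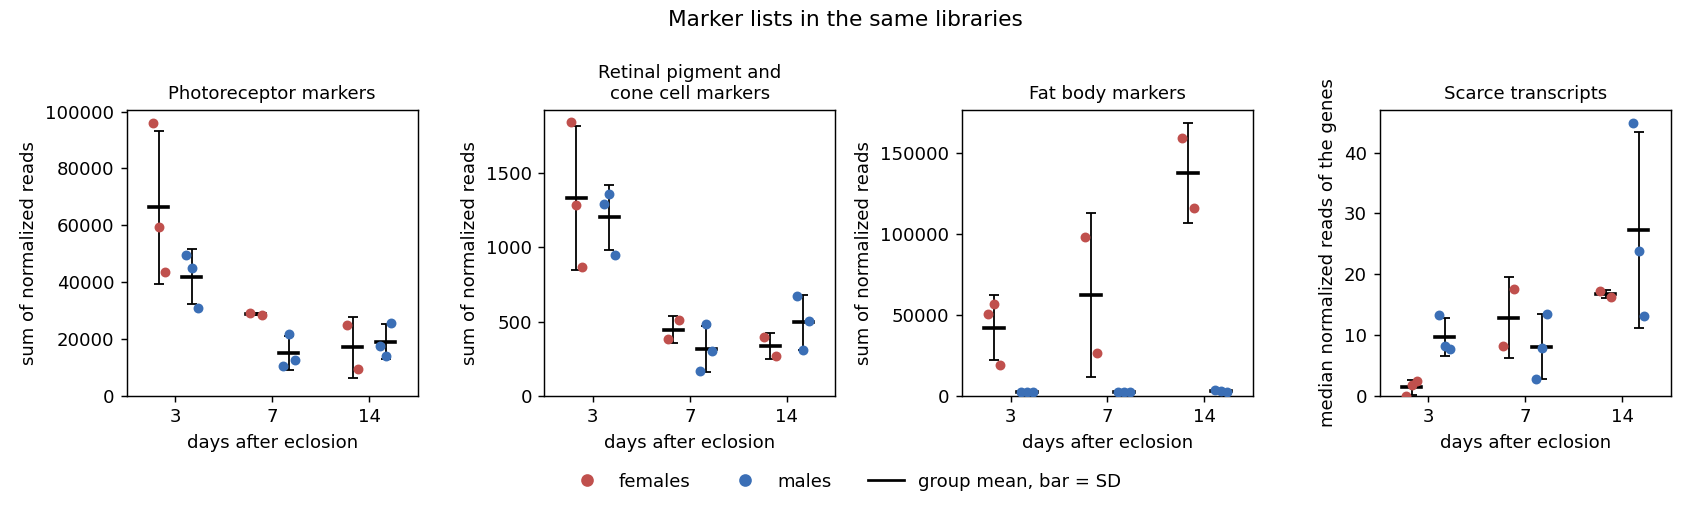
Marker levels in the same libraries by days after eclosion: the summed normalized reads of photoreceptor, retinal pigment and cone cell, and fat body markers, and the median of 135 scarce transcripts (females red, males blue, line for the mean, bar for the SD, stopping at 0). Eye markers were highest at 3 days, fat body markers lay between 19006 and 159442 in females against 2108 to 3422 in males, and scarce transcripts were lowest in 3-day females.

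Within the set, the 9 genes did not move as 1 group over the 16 libraries. The highest Pearson's r of log2 values were 0.833 for cn with cd, 0.799 for st with cn and 0.755 for st with cd, and the lowest was −0.807 for pr with cd. White, which partners both other transporters, had an r of 0.729 with st and −0.12 with bw. Hn had an r of 0.619 with v and 0.559 with pr. bw had no gene with an r of at least 0.8 (Vsx1 was nearest at 0.754), se had 2 (Wdr62 at 0.811 and Ets65A at 0.804), w had 3 (ninaG at 0.831, ptc at 0.824 and dia at 0.816), pr 67 (Tsp29Fb at 0.889 nearest) and st 471 (Reg-2 at 0.950 nearest).

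Per kb, v exceeded cn in 13 of the 15 libraries with any cn read, with a median ratio of 4.60. At 3 days this ratio was 32.9 and 48.0 in the 2 female libraries with a cn read, against 0.217 to 7.32 in males. Those 2 female libraries held 1 cn read each and the third held 0, so a single read set each female value. At 7 days the ratio was 6.325 and 6.40 in females, against 0.991 to 23.3 in males, where 23.3 also rests on 1 cn read. At 14 days it was 4.60 and 5.62 in females, against 1.07 to 1.94 in males. The ratio of Hn to pr, the hydroxylase over the enzyme of its cofactor, was below 1 in all 16 libraries, at 0.145 to 0.422 in females and 0.0453 to 0.180 in males.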

How the data were processed

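Brains of virgin flies were pooled, 100 per sample. The authors trimmed reads with Trimmomatic (0.39), removed ribosomal reads with Sortmerna (2.1), mapped with STAR (2.7.3a) to FlyBase 6.32 and normalized in DESeq2 (2.10, R 2.14.1), per the labels. The deposited signal values are these normalized reads. Within a tolerance of 1e-06, 100% of values were whole multiples of 1 number per library, so reads were recovered. The counting program is not given in the sources used here.

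Genes were matched by annotation symbol to NCBI's release 6 gene table, and exonic lengths came from BDGP6.54. limma 3.58.1 (R 4.3.3) with a variance trend was fitted to log2(value + 1) of 12448 genes with a mean of at least 5. All 13 comparisons came from 1 model, Benjamini-Hochberg adjusted over all genes, with a threshold of 0.1. The code was tested on simulated data. All 9 genes were named, up to 4 genes per list and comparison with the smallest adjusted p, and the 3 genes most alike each (mean of at least 50). Genes and lists were chosen with earlier results of these data known. Alternatives were edgeR 4.0.16 and DESeq2 1.42.0 on recovered reads, pseudocounts 0.5 and 5, a minimum mean of 20 or none, a replicate block, quantile normalization, only the groups compared, thresholds of 0.05, a photoreceptor covariate, and leaving out libraries.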

Additional observations from a re-analysis of the deposited data

How the results depend on the processing

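The alternatives were run on 28 single-gene results, each with a call or an unadjusted p below 0.05, and none of these changed direction; other small differences can, such as bw in 14-day over 3-day males (−0.02 in limma, 0.01 in DESeq2). Of 565 values over the 28, 424 stayed on their side of the threshold, 95 lost it and 46 gained it. The counts of called genes out of 9 moved as follows, and the cause was not tested. At an unadjusted p below 0.05, females against males gave 5, 1 and 2 at 3, 7 and 14 days, 7-day against 3-day females 3, 7-day against 3-day males 1, and the sex difference in the change 3 and 1 for 3 to 7 and 7 to 14 days. At adjusted p 0.05 the averaged sex difference gave 1 and 14-day males 0 against both younger ages. DESeq2 called 5 and 1 between the sexes at 3 and 7 days (1962 of 12440 and 81 of 11716 genes in all). It called 3 in 7-day against 3-day females and 1 for the change 3 to 7 days (1741 and 868 of 12440). In these 4 comparisons limma called 1417, 7, 955 and 68 of 12448 genes. edgeR called 2 in 7-day against 3-day females and 0 in 14-day males over 7-day and over 3-day males (1107, 0 and 76 of 12448). For the other alternatives in this paragraph the number of all genes called is not given. A pseudocount of 0.5 gave 2 for 7-day against 3-day females, and 1 and 0 for 14-day males against 7-day and 3-day males. No filter and a mean of at least 20 each gave 1 for 14-day against 7-day males. Quantile normalization gave 0 for 7-day and 0 for 14-day against 3-day females, and 1 for 14-day against 3-day males. The photoreceptor covariate gave 1 for the sexes at 3 days, 1 averaged over ages, 0 for 7-day and 0 for 14-day against 3-day females, and 1 and 0 for 14-day against 7-day and 3-day males. Without both doubted libraries (7-day females 2, 14-day males 1), 5 were called between the sexes at 3 days, and 0 in 14-day males against both younger ages. Counts for 7-day females are not given there, since 1 library of that group remains. With only the groups compared, 7-day against 3-day females and 14-day males against both younger ages gave 0.

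Leaving out 1 library at a time gave 1 to 4, 0 to 1 and 0 calls between the sexes at 3, 7 and 14 days, 1 to 3 averaged over ages, 0 to 2 and 0 to 3 for 7-day and 14-day against 3-day females, 0 to 3 for 14-day males against 7-day and against 3-day males, 0 to 2 for the change 3 to 7 days, and 0 in the other comparisons. With the replicate number as a block, 14-day males gave 0 against 7-day and 0 against 3-day males, and no other count moved by over 1.5 times. For the fits with a library left out or with the block, the number of all genes called is not given. A call lost or gained in them therefore cannot be read as particular to the genes described here. The same holds for the calls of single genes lost in the Results when a library was left out. Same-numbered libraries did not deviate together in the median (r −0.05 over 35 pairs, 0.01 over 71 other pairs). The r of same-numbered pairs ran from −0.62 to 0.43. Deviations from the mean of 2 or 3 libraries are tied to each other, so these values cannot settle whether replicate numbers mark pairs. Depth limits cn and cd, with 2 and 10 reads in all in 3-day females.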
